A study of Mus musculus with 6 samples.

Results

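Serpina6 encodes corticosteroid-binding globulin, the plasma protein that carries glucocorticoids in blood. In kidney, its array probe showed the largest measured fall of all tested probes from MRL to LPR mice, and it was chosen by that value. It is described here together with 9 other genes that were chosen by function: the corticosteroid receptors Nr3c1 and Nr3c2, the enzymes Hsd11b1 and Hsd11b2, and the response genes Fkbp5, Tsc22d3, Per1, Sgk1 and Zbtb16. These 10 of 36870 genes named on the array are measured by 20 of its 56605 probes that are not controls, and every such probe bearing one of the 10 names was taken. Of the 20 probes, 18 were tested, 17 were well above background on all 6 arrays, and 2 were above it on none.

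TA was performed on the whole kidneys of 3 MRL/MpJ mice and 3 MRL/MpJ-Fas lpr/lpr mice, all female and 6 months old, with 1 array for each mouse. The LPR mice are homozygous for the lpr mutation of Fas, a death receptor gene, and develop lupus nephritis, whereas the MRL mice served as controls and share the MRL/MpJ background. Values are log2 intensities minus the 75th percentile of the array, and a change is the LPR mean minus the MRL mean. A whole kidney holds many cell types, so fewer cells of a type and less RNA per cell cannot be told apart.

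Glucocorticoids circulate largely bound to corticosteroid-binding globulin, which is made mostly by the liver. In the target cell, Hsd11b1 makes active hormone from its inert keto form and Hsd11b2 inactivates it. Hsd11b2 does so in the collecting duct, where it keeps glucocorticoids off the mineralocorticoid receptor. Bound receptors enter the nucleus and raise genes such as Fkbp5, Tsc22d3, Per1, Sgk1 and Zbtb16, and adrenal hormone output follows a daily rhythm.

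Arrays of 1 group correlated with r of 0.990 to 0.993 over all tested probes, and arrays of different groups with 0.961 to 0.971. Of 39924 tested probes, limma called 12.7% changed at an adjusted p under 0.05, with 6.53% higher and 6.17% lower in LPR mice. The change of the median probe was -0.14, and 68.6% of the tested probes had a negative change. The brighter probe for Fas (A_55_P2091676) changed by -0.47 (standard error 0.24) and did not pass (adjusted p = 0.234). Signals of its other probe (A_52_P73385) were well above background in 0 MRL mice and 3 LPR mice, and it passed in limma (adjusted p = 0.0338) with a level in LPR mice that was at least 1.47-fold higher, so the 2 probes moved in opposite directions. This bound sets the MRL arrays at no less than their dimmest signal well above background.

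Serpina6 has a single probe, A_51_P133562, on the minus strand of chromosome 12 at 104884880 to 104884939 (build mm9), which begins at base 1511 of its transcript. The first 30 of its 60 bases are shown because the whole result for this gene rests on this probe.
Serpina6 probe: atcttgtaatgaataggccttgttgctact
No run of 20 bases in it was shared with a probe of another gene on the array, and a match to other transcripts was not tested.

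The Serpina6 level was 3.51, 3.02 and 3.69 in MRL mice 1 to 3, and -2.01, -0.24 and -1.52 in LPR mice 1 to 3. The groups lay 3.26 apart at their nearest members, and LPR 2 was the highest of the LPR mice. As deposited, before scaling, the intensities were 8368, 5769 and 9123 in the MRL mice and 233, 624 and 265 in the LPR mice. The LPR signals were thus low but still measured, since the dimmest probes well above background read 10.4 to 12.5 on these arrays.

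The MRL mean was 3.40 ± 0.35 (SD, n = 3), whereas the LPR mean was -1.26 ± 0.91 (SD, n = 3). The change was -4.66 (standard error 0.44), a level 25.3-fold lower in LPR mice. No test is given for it, because the probe was selected on this contrast. Just behind it came a probe for Gm46902 (-4.58), 2 probes for Igfbp5 (-4.54 and -4.42), a gene for an insulin-like growth factor binding protein, and a probe for Ucp1 (-4.30), the uncoupling protein of brown fat. By their measured signals these 5 probes fell at least 10-fold, and the next, for AK083287, fell by 3.09. The probes for Ucp1 and AK083287 were well above background in only 1 of 3 LPR mice, so their falls, and their ranks against Serpina6, are uncertain. The spread of Serpina6 within the groups, a pooled SD of 0.69, was wider than that of 97.7% of the tested probes.

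**Figure D1:**
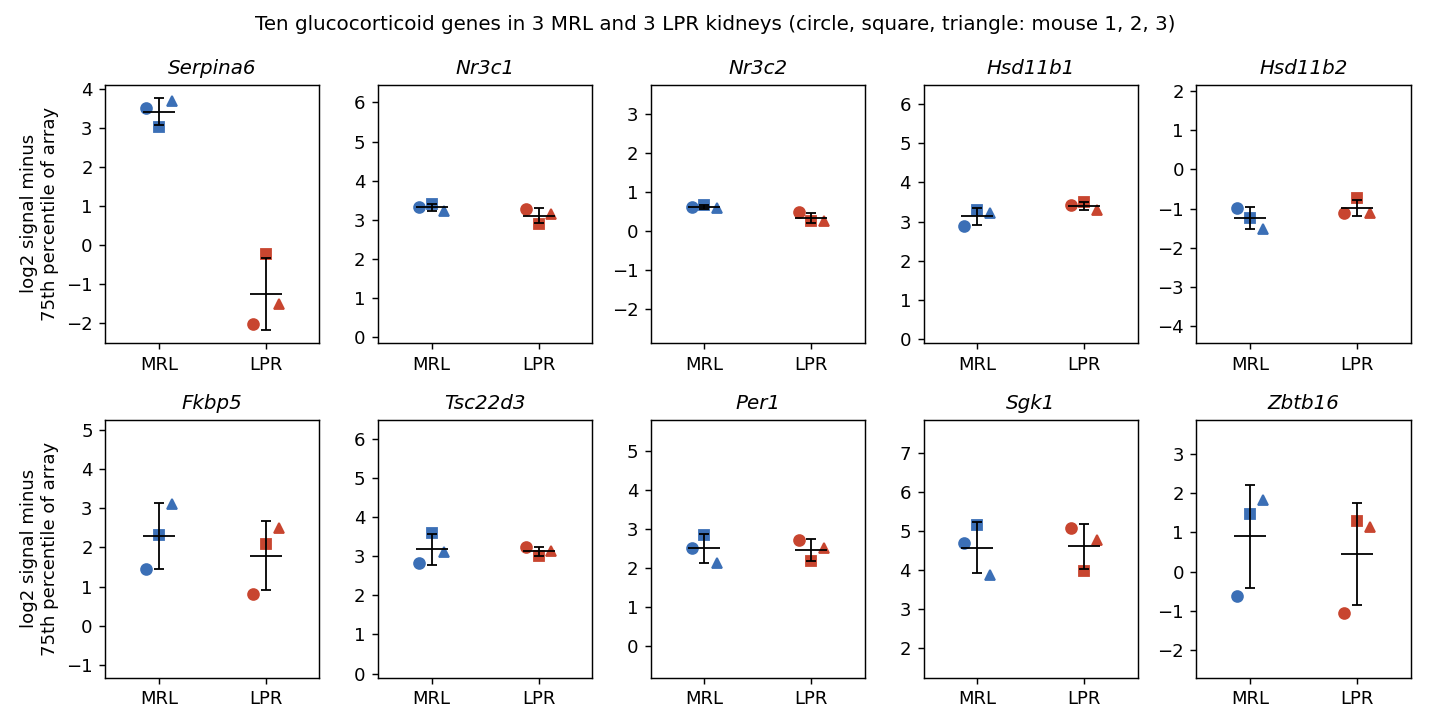
Level of the brightest probe of each of the 10 genes in each mouse, as log2 intensity minus the 75th percentile of the array. Every panel spans the same number of log2 units, horizontal lines are group means and bars are SD (n = 3), and only Serpina6 and Nr3c2 have groups that do not overlap.

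By Pearson correlation over the 6 arrays, the genes whose pattern was most like that of Serpina6, among 23316 genes above background on all arrays, were Fgf9 (r = 0.999), Hdac6 (0.998), the transcript BQ031533 (0.998), Usp31 (0.998) and Casp14 (0.997). Their changes were far smaller. Fgf9, a fibroblast growth factor, changed by -0.92, and Hdac6, a cytoplasmic deacetylase, by -0.45. In all 5, LPR 2 was the LPR mouse closest to the MRL mice, and with 2 separate groups the gap between the strains weighs heavily in r.

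None of the other clade A serpins changed as Serpina6 did. Of 25 on the array, 18 were tested, and limma called 5 higher and 0 lower, against 6.53% and 6.17% of all tested probes. At an unadjusted p under 0.05 these were 11 and 0, and by the methods' t-test 5 and 1. The median change of the 18 was 0.55 beside -0.14 over all tested probes. Serpina3g, a protease inhibitor of lymphoid and myeloid cells, was at -1.49, -1.22 and -0.63 in MRL mice and at 3.43, 3.37 and 3.41 in LPR mice (change 4.51, adjusted p = 3.97e-05). Serpina3n, an acute-phase inhibitor, changed by 2.17 (adjusted p = 0.000319), Serpina3i by 2.08 (adjusted p = 3.7e-05) and Serpina3f by 1.89 (adjusted p = 0.000123). Serpina3b also passed, with a change of 0.56 (adjusted p = 0.0158), and was lost under 6 of the 18 alternatives, whereas the other 4 calls held under all of them.

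Serpina6 lies near an end of this gene cluster. Its nearest neighbour Serpina10, whose probe lies 19.9 kb away, changed by 0.66 (adjusted p = 0.214), and Serpina1f, 43.1 kb away on the other side, by -0.23 (adjusted p = 0.203). The 5 genes Serpina1a to Serpina1e, near-identical copies of the antitrypsin gene whose transcripts these probes may not tell apart, had changes of 0.46 to 0.59 and did not pass. Serpina7, which encodes the thyroxine-binding relative of corticosteroid-binding globulin, and Serpina12 were below background on every array.

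**Figure D2:**
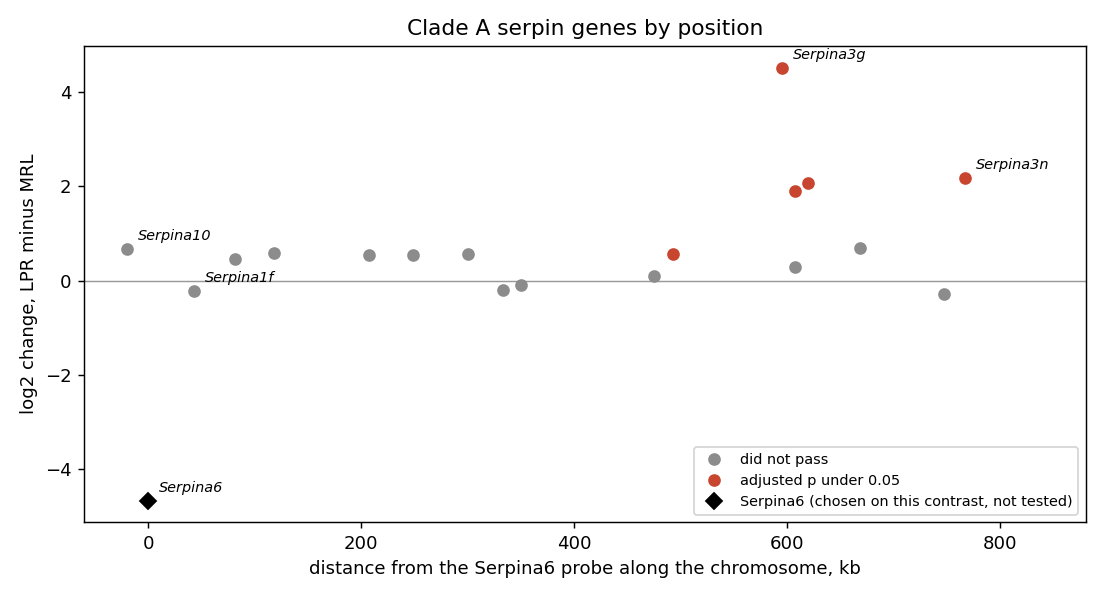
Change (log2, LPR minus MRL) of each tested clade A serpin against the distance of its probe from the Serpina6 probe, in kb. Serpina6 stands alone at -4.66, whereas the 5 genes that passed are all Serpina3 genes at a distance of 493 to 767 kb.

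Markers of cells that could bring Serpina6 transcript into a kidney sample were read beside it, as the sum of intensities divided by the 75th percentile over the brightest probes of a list. For hepatocytes, the summed level of 7 tested genes was 2.68 to 3.44 in MRL mice and 2.42 to 3.02 in LPR mice, and Apoa1 was below background on every array. Limma called 1 of these higher and 1 lower (Ttr, -1.39), and the methods' t-test called 0. The higher one was Apoh, which was above background in 1 of 3 MRL mice and 3 of 3 LPR mice, so the size of its change is uncertain. For adrenal cortex cells, the summed level of 6 tested genes was 4.28 to 4.65 and 3.27 to 4.13, with 0 called by limma (2 lower at an unadjusted p under 0.05, 0 by the methods' t-test), and Cyp11b1 and Cyp11b2, the last enzymes of corticosterone and aldosterone synthesis, were below background on every array.

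The summed level of 7 adipocyte markers was 42.4 to 57.0 in MRL mice and 11.4 to 33.0 in LPR mice. All 7 changes were negative. Limma called 2 of them (Fabp4, -0.83, and Ucp1, -4.30), and the methods' t-test called 0. The order of the LPR mice differed between the genes. Adipoq, the gene for adiponectin, was at 0.10, -0.05 and -3.07 in LPR mice 1 to 3, so LPR 3 was lowest. Fabp4 was at 3.43, 3.04 and 3.05, so LPR 2 was lowest by a small margin. Adipoq did not pass and was chosen after its values were seen. The part of fat tissue in the fall of Serpina6 was not tested.

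The summed level of 7 proximal tubule genes was 603 to 652 in MRL mice and 459 to 512 in LPR mice (3 lower by limma and by the methods' t-test), and that of 5 genes of the loop and distal tubule was 330 to 365 and 259 to 286 (1 lower by limma, 0 by the methods' t-test). Collecting duct genes (31.8 to 39.5 and 30.9 to 37.7) and podocyte genes (19.1 to 21.8 and 20.01 to 25.8) overlapped between the strains. Of these, limma called 0 of 6 and 0 of 5, with 2 lower and 1 higher at an unadjusted p under 0.05, and the methods' t-test called 1 and 0. Leukocyte genes were at 26.5 to 31.7 in MRL mice and 110 to 116 in LPR mice, with 7 of 10 higher by limma and 5 by the methods' t-test. Most of the sum in LPR mice was Lyz2 alone, at 7.07 to 13.2 in MRL mice and 78.1 to 86.9 in LPR mice. The 3 genes that did not pass in limma had changes of -0.09 to 0.39. The part of these shifts in the changes below was not tested.

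None of the other 9 genes passed. By the brightest probe, limma called 0 of 9 at an adjusted p under 0.05, against 12.7% of all tested probes, and 1 at an unadjusted p under 0.05, and the methods' t-test gave the same 0 and 1. Over their 17 tested probes the call was 0 as well. At an unadjusted p under 0.05, 5 probes were lower and 0 were higher by limma and by the methods' t-test, where limma placed 20.5% of all tested probes as lower. In 5 of the 17, every LPR mouse was below every MRL mouse, which held for 26.9% of all tested probes. The shares of these 17 probes were therefore near those of the whole array.

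**Figure D3:**
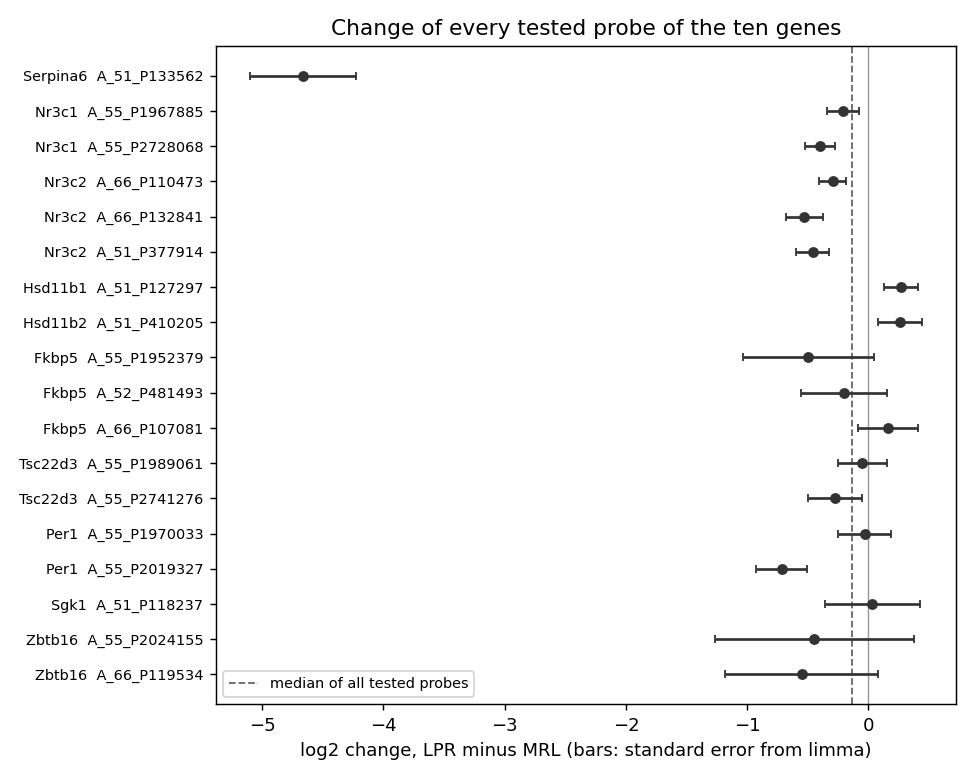
Change (log2, LPR minus MRL) of each of the 18 tested probes of the 10 genes, with the standard error from limma as bars and the median of all tested probes (-0.14) as a dashed line. Apart from Serpina6, the changes lie between -0.72 and 0.27.

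The corticosteroid receptors had small negative changes on all of their probes. Nr3c1, the glucocorticoid receptor, was measured by A_55_P1967885 (chromosome 18, 39571641 to 39571700) at 3.32, 3.41 and 3.21 in MRL mice and 3.28, 2.88 and 3.15 in LPR mice. The groups overlapped, and the change of -0.21 (standard error 0.13, adjusted p = 0.33) had a 95% interval of -0.53 to 0.11. Its second probe, A_55_P2728068, was at 3.12, 2.98 and 2.78 in MRL mice and 2.62, 2.59 and 2.48 in LPR mice. Those groups did not overlap, yet the change of -0.40 (standard error 0.12) missed the threshold (adjusted p = 0.08). The second probe passed with an intensity trend in limma. Measured from the median of all probes, the 2 changes were -0.07 and -0.26.

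Nr3c2, the mineralocorticoid receptor of the distal nephron, has 3 probes on chromosome 8, and on each of them every LPR mouse was below every MRL mouse. The brightest, A_66_P110473 (79768704 to 79768763, plus strand), was at 0.61, 0.68 and 0.58 in MRL mice and 0.48, 0.25 and 0.25 in LPR mice, a change of -0.30 (standard error 0.11, adjusted p = 0.127). A_66_P132841 changed by -0.53 (adjusted p = 0.0666) and A_51_P377914 by -0.46 (adjusted p = 0.0768). From the median of all probes these were -0.16, -0.39 and -0.32. A_66_P132841 passed with normexp background correction and with an intensity trend in limma.

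The proteins that hold or shuttle these receptors were then read. Of 18 such genes, limma called 1 lower and 0 higher, against 6.17% and 6.53% of all tested probes. At an unadjusted p under 0.05 these were 2 and 1, and by the methods' t-test 1 and 1, with a median change of -0.11. The one that passed was Hsp90aa1, the inducible cytosolic form of the chaperone HSP90 that keeps the receptor ready for hormone. It was at 4.66, 4.53 and 4.58 in MRL mice and 4.10, 3.93 and 4.10 in LPR mice, a change of -0.54 (adjusted p = 0.019). The call was lost under 5 of the 18 alternatives.

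Both 11-beta-hydroxysteroid dehydrogenases had positive changes that did not pass. Hsd11b1 (A_51_P127297, chromosome 1, 195048169 to 195048228) was at 2.88, 3.29 and 3.22 in MRL mice and 3.42, 3.49 and 3.29 in LPR mice. MRL 1 was the lowest mouse, and the strains overlapped only between MRL 2 and LPR 3. Its change was 0.27 (standard error 0.14, adjusted p = 0.243), with a 95% interval of -0.06 to 0.60.

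Hsd11b2 (A_51_P410205, chromosome 8), whose probe is placed across 108046785 to 108047002 and thus over more genome than its 60 bases, was at -0.97, -1.24 and -1.54 in MRL mice and -1.10, -0.74 and -1.12 in LPR mice. The change was 0.26 (standard error 0.18, adjusted p = 0.364), with an interval of -0.17 to 0.69. Both intervals leave out a halving of the level and a change as large as that of Serpina6.

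Among 17 other genes, listed as steroid enzymes and as carriers, limma called 3 lower and 0 higher, against 6.17% and 6.53% of all tested probes. At an unadjusted p under 0.05 these were 5 and 0, and by the methods' t-test 0 and 0, with a median change of -0.27. Ttr, which is also in the hepatocyte list, encodes transthyretin, a plasma carrier of thyroxine and retinol rather than of steroids. It changed by -1.39 (adjusted p = 0.0314). Akr1d1, a reductase that starts the breakdown of steroid hormones, changed by -1.03 (adjusted p = 0.0489), and Hsd17b11, a dehydrogenase of lipid droplets, by -0.52 (adjusted p = 0.0342). Each of these 3 calls was lost under 9 to 11 of the 18 alternatives.

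The response genes differed more between mice of 1 strain than between the strains. Sgk1, a kinase that holds sodium channels at the cell surface, was at 4.69, 5.16 and 3.87 in MRL mice and 5.08, 3.97 and 4.77 in LPR mice (A_51_P118237, chromosome 10, 21719390 to 21719449). Its change was 0.03 (standard error 0.39, adjusted p = 0.965) with an interval of -0.90 to 0.96. MRL 3 and LPR 2 were the low mice, and the pooled SD of 0.61 exceeded that of 96.7% of the tested probes, whose median was 0.17. The second Sgk1 probe, A_52_P352246, was below background on every array and was not tested.

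Per1, a repressor of the circadian clock that glucocorticoids also induce, followed the same mice. Its probe A_55_P1970033 (chromosome 11, 68923364 to 68923423) was at 2.53, 2.86 and 2.13 in MRL mice and 2.74, 2.18 and 2.51 in LPR mice, with a change of -0.03 (standard error 0.22, adjusted p = 0.939). A much dimmer probe, A_55_P2019327, was above background in 3 MRL mice and 1 LPR mouse. It was at -5.24, -5.39 and -5.07 in MRL mice and -5.55, -6.36 and -5.95 in LPR mice, a change of -0.72 that missed the threshold (adjusted p = 0.0735). Without LPR 1 it passed. The 2 probes thus ordered the mice differently, and the dim one lay close to the background.

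Tsc22d3, which encodes the glucocorticoid-induced leucine zipper protein GILZ, was at 2.83, 3.60 and 3.11 in MRL mice and 3.24, 3.00 and 3.14 in LPR mice (A_55_P1989061, chromosome X, 137074094 to 137074153). The change was -0.05 (standard error 0.20, adjusted p = 0.884), and MRL 2 was the highest mouse, as it was for Per1 and Sgk1. A_55_P2741276 changed by -0.28 (adjusted p = 0.433), again with MRL 2 highest. The other probe, A_55_P2719913, was below background on every array.

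Fkbp5, a co-chaperone that lowers the affinity of the receptor for hormone, has 3 probes on the minus strand of chromosome 17 that ordered the mice differently. The first 30 bases of each are shown, because the probes of this gene disagree.
Fkbp5 A_55_P1952379, 28536060 to 28536119: gggaggccctgtctcaaaacaaaacaaaaa
Fkbp5 A_52_P481493, 28574995 to 28575054: gaggccccaatgtttggtgacaaagtttat
Fkbp5 A_66_P107081, 28634702 to 28634761: acaaaaacctaccaactcatccaacatgat
The first begins at base 3462 of its transcript and the second at base 351 of the same transcript, whereas the third is placed on a different one. None shared a run of 20 bases with a probe of another gene. Only probes of the array were compared, so a match to other transcripts was not tested.

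On the brightest of these, A_55_P1952379, Fkbp5 was at 1.44, 2.31 and 3.12 in MRL mice and 0.81, 2.08 and 2.49 in LPR mice. Its change of -0.50 (standard error 0.54, adjusted p = 0.567) had an interval of -1.78 to 0.79, and its pooled SD of 0.86 was wider than that of 98.9% of the tested probes. On A_52_P481493 the mice took another order, at -0.72, 0.32 and -0.28 in MRL mice and -0.41, -1.01 and 0.14 in LPR mice (change -0.20, adjusted p = 0.729). On the dim A_66_P107081 the change was 0.16 (adjusted p = 0.688). None of the 3 passed.

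Zbtb16, a zinc finger repressor that is induced by glucocorticoids in many cell types, had the widest spread of the 10 genes. Its probe A_55_P2024155 (chromosome 9, 48462419 to 48462478) was at -0.61, 1.48 and 1.83 in MRL mice and -1.05, 1.29 and 1.13 in LPR mice. MRL 1 and LPR 1 stood far below the other 4 mice, and the pooled SD of 1.32 was wider than that of 99.8% of the tested probes. The change was -0.44 (standard error 0.82, adjusted p = 0.743), with an interval of -2.40 to 1.51. The dimmer probe A_66_P119534 kept this order, at -4.64, -3.23 and -2.996 in MRL mice and -5.44, -3.38 and -3.70 in LPR mice (change -0.55, adjusted p = 0.587).

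**Figure D4:**
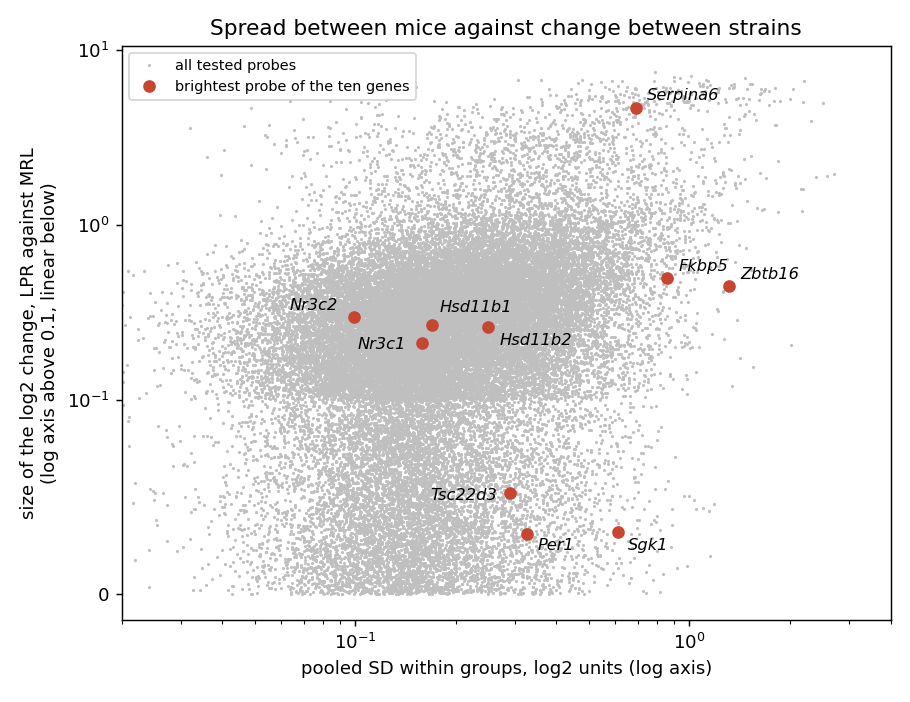
Size of the change between strains (log2; log axis above 0.1 and linear below) against the pooled SD within the strains (log2 units, log axis) for all tested probes in grey and the brightest probe of the 10 genes in red. Serpina6 joins a large change to a wide spread, whereas Zbtb16, Fkbp5 and Sgk1 have a wide spread and a change within it.

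Some response genes varied together between the mice. Per1 and Sgk1 were both low in MRL 3 and LPR 2 and highest in MRL 2. Over the 6 mice their Pearson r was 0.987 (exact permutation test, two-sided, p = 0.00278, adjusted over 10 pairs of response genes 0.0278), and their Spearman rho was 0.943 (exact p = 0.0167, adjusted 0.167), which does not pass after adjustment. Without MRL 2 and MRL 3, the 2 mice farthest from the median of Per1, r was 0.990, and without the low mice MRL 3 and LPR 2 it was 0.971. Within the 3 MRL mice r was 0.995 and within the 3 LPR mice 0.990. These values are for the brightest Per1 probe, and the dim A_55_P2019327 gave an r of 0.15 with Sgk1.

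Among the genes above background on all arrays, Per1 was second in its likeness to Sgk1. The first was Plk3, a stress-induced kinase (r = 0.998), which was at 1.83, 2.33 and 0.75 in MRL mice and 2.32, 0.92 and 1.83 in LPR mice. Plk3 was singled out after its values were seen.

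By their brightest probes, Fkbp5 and Zbtb16 followed other mice, with MRL 1 and LPR 1 lowest for both. Over the 6 mice their Pearson r was 0.940 (exact permutation test, two-sided, p = 0.00556, adjusted over the 10 pairs 0.0278), and their Spearman rho was 0.829 (exact p = 0.0583, adjusted 0.292), which does not pass. Without LPR 1 and MRL 3, the 2 mice farthest from the median of Fkbp5, r was 0.900. Zbtb16 split the mice into 2 low and 4 high ones, and r over the 4 high mice alone was 0.745, so part of the relation rests on MRL 1 and LPR 1. The other Fkbp5 probes gave a lower r with the same Zbtb16 probe, 0.34 for A_52_P481493 and 0.66 for A_66_P107081. The relation thus rests on 1 Fkbp5 probe. Among the genes above background on all arrays, Fkbp5 was only at rank 207 in its likeness to Zbtb16. In all tested genes, mouse 1 was the lowest of its group in both strains for 21.7% of 25805 genes, and for the other 9 members this held for 2, which are Fkbp5 and Zbtb16. None of the other 8 pairs of response genes passed, and their r lay between -0.55 and 0.63.

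**Figure D5:**
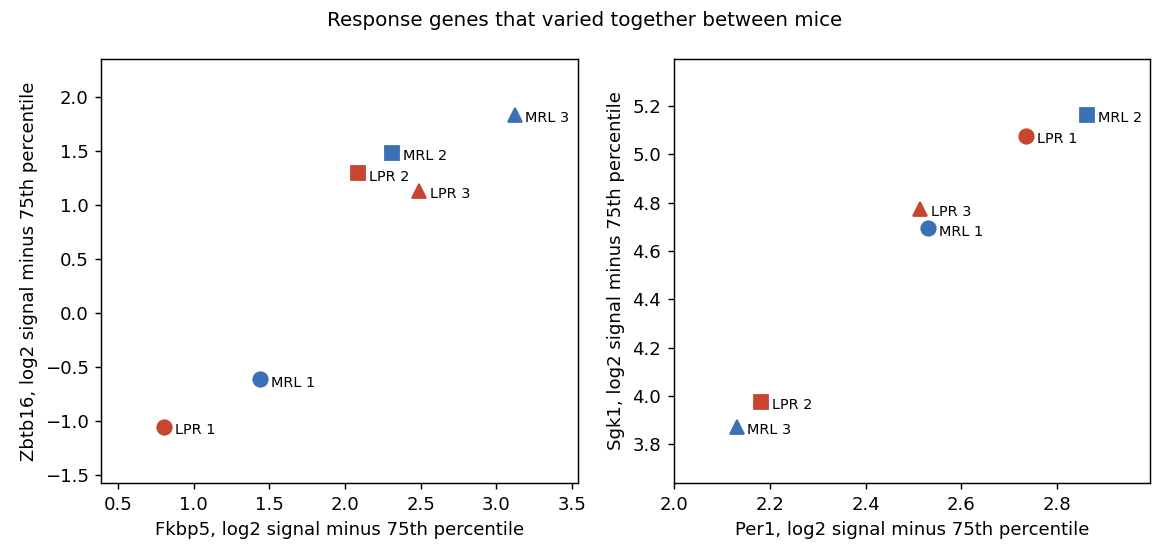
Levels of the brightest probes of Fkbp5 and Zbtb16 (left) and of Per1 and Sgk1 (right) in each mouse, in log2 intensity minus the 75th percentile of the array, with MRL mice in blue and LPR mice in red. In both plots mice of the 2 strains are mixed along the diagonal, with MRL 1 and LPR 1 low on the left and MRL 3 and LPR 2 low on the right.

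Clock genes were read beside Per1. Of 16, limma called 2 lower and 0 higher, against 6.17% and 6.53% of all tested probes. At an unadjusted p under 0.05 these were 4 and 0, and by the methods' t-test 0 and 0, with a median change of -0.31. Hlf, an output factor of the clock, was at 2.03, 2.50 and 2.41 in MRL mice and 1.53, 1.52 and 1.71 in LPR mice (change -0.73, adjusted p = 0.0248). The call of Hlf was lost under 8 of the 18 alternatives. Some other clock genes varied between mice of 1 strain. Dbp was at 2.02, 4.22 and 4.05 in MRL mice and 2.81, 3.06 and 4.002 in LPR mice, and Arntl, which peaks when Dbp is low, was at -0.39, -1.98 and -1.67 in MRL mice and -0.84, -0.82 and -1.44 in LPR mice.

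MRL 1 was thus the lowest mouse for Dbp and the highest for Arntl. Per3 was lowest in MRL 1 and LPR 1, as Zbtb16 and Fkbp5 were, at -1.66, -0.55 and -0.31 in MRL mice and -1.81, -0.91 and -0.72 in LPR mice. Dbp, Arntl and Per3 were chosen after their values were seen. The time of day at which the kidneys were taken is not given in the sources used here, and its part in these differences was not tested.

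Beyond the 5 response genes, 32 further genes that glucocorticoids raise in many tissues were read. Of these, limma called 4 lower and 3 higher, against 6.17% and 6.53% of all tested probes. By the methods' t-test the counts were 1 and 1, and the median change was -0.20. The lower ones were Pdk4, a kinase that spares glucose (1.51, 1.70 and 1.39 in MRL mice, -0.75, 0.24 and 0.02 in LPR mice, change -1.70, adjusted p = 0.007), Pck1, the rate-limiting enzyme of glucose synthesis (6.52, 6.47 and 6.35 against 4.66, 5.09 and 5.26, change -1.45, adjusted p = 0.00211), and the metallothioneins Mt2 (change -1.18, adjusted p = 0.0353) and Mt1 (change -1.05, adjusted p = 0.0194). Pck1 is also a gene of the proximal tubule, and the summed level of proximal tubule markers was lower in LPR mice. Its part in these calls was not tested.

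The higher ones were Lcn2, the injury marker NGAL (-0.52, 0.11 and -0.24 against 2.43, 1.33 and 2.02, change 2.14, adjusted p = 0.00483), Il1r2, the decoy receptor for interleukin-1 (change 1.99, adjusted p = 0.00299), and Gadd45b, a stress-induced gene (change 0.59, adjusted p = 0.0315). Lcn2 and Il1r2 are also expressed by myeloid cells, and 7 of 10 leukocyte markers were higher in LPR mice by limma. The part of such cells was not tested. The list thus held genes that passed in both directions. The calls of Pck1 and Il1r2 held under all 18 alternatives, those of Pdk4 and Lcn2 were lost only with the methods' t-test, and those of Mt1, Mt2 and Gadd45b were lost under 6 to 8.

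For aldosterone, the other ligand of Nr3c2, 16 genes of sodium and potassium transport gave 3 lower and 0 higher by limma, against 6.17% and 6.53% of all tested probes. At an unadjusted p under 0.05, 11 were lower and 1 higher, where limma placed 20.5% of all tested probes as lower. The methods' t-test called 5 lower and 0 higher. The median change was -0.35, beside -0.14 over all tested probes. Those called lower by limma were Wnk4, a kinase that controls the thiazide-sensitive transporter (change -0.54, adjusted p = 0.0192), Stk39, the kinase that acts below it (change -0.52, adjusted p = 0.0197), and Atp1b1, a subunit of the sodium pump (change -0.43, adjusted p = 0.0412). These calls were lost under 5 to 10 alternatives.

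Promoter windows of 300 bases, from 250 before to 50 after a transcription start, were taken from RefSeq (GRCm38.p6) for the members and matched for 6 of the 10. They were searched on both strands for the glucocorticoid response element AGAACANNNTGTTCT, which reads the same on either strand, and for its half-site TGTTCT, which the other strand shows as AGAACA. Each element holds 2 of these half-sites. The element was present in 3 of 32851 windows of the genome, or 0.00913%, and in 1 of the 14 member windows, which is 1 of the 6 Sgk1 windows. The 250 bases upstream of that start are shown because no other member window held the element. They lie on the plus strand of chr10:21993640-21993889 in GRCm38.p6, with the element in capitals from -189 to -175.
Sgk1 upstream: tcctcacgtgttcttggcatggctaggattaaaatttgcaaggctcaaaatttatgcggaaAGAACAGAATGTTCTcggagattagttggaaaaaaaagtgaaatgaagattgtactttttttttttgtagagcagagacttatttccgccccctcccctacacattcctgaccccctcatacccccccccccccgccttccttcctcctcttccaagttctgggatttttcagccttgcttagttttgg

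Another half-site, in lower case, lies near the start of this stretch. A half-site occurred in 4 of the 14 member windows, counting the window with the element, and in 19.0% of all windows. Of these member windows, 3 belong to Sgk1, which has 6 windows, and 1 to Tsc22d3. The 2 Per1 windows held neither the element nor a half-site. A relation of these letters to the levels in the mice was not tested. A match is only a description of these letters, and glucocorticoid response elements also lie far outside such windows.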

How the data were processed

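Whole kidneys of 3 MRL and 3 LPR mice were hybridized to single-colour Agilent arrays on 1 slide, with probes placed on build mm9. Per the labels RNA was purified with the RNeasy Mini Kit. The authors deposited the intensity of each spot from Feature Extraction 12.0.3.1, background-subtracted and detrended but not normalized between arrays, and a value table holding the ratio of these intensities to a constant of each array, which was used as an alternative. Its unit is the authors' own shift, and each column had a median of 0.102 to 0.109.

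Control and outlier spots were left out (73 to 90 outliers of 59305 spots per array), intensities were taken to log2, and the 75th percentile of each array (706 to 942) was subtracted. Spots of 1 probe were averaged. Probes well above background on at least 3 of 6 arrays entered limma (version 3.58.1, R 4.3.3). The p-values of all 39924 such probes were adjusted together by the Benjamini-Hochberg method, and 0.05 was the threshold. Between 69.6% and 73.5% of spots were well above background and none was saturated, so the number of arrays limits the precision. The brightest tested probe stands for a gene. The smallest two-sided p of an exact test of 3 against 3 is 0.1, so none is given for single genes.

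The 10 genes, the marker lists and the pathway lists were chosen with earlier results of these data known. Named genes were all member probes, Fas, up to 4 called genes of each pathway list in its main direction and up to 3 in the other, and the 5 genes most like Serpina6. Further names were marker genes that were called or below background, and serpins named by their position or as below background. Names chosen after seeing values, Adipoq among them, are marked. 1 called gene is not reported here and remains in the counts. In place of set tests, lists are described by counts and medians. Counts of marker and pathway lists stand beside the shares of all tested probes that limma called, 6.53% higher and 6.17% lower. The steps were tested on simulated data. Alternatives were other scalings, background correction, filters and tests, the slide column, the replicate number, the mean of probes, and leaving out each mouse. Figures used matplotlib 3.10.9.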

Additional observations from a re-analysis of the deposited data

How the results depend on the processing

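By the brightest probe, or the mean of probes, the count of 0 called genes among the 9 members held under all 18 alternatives. Some dimmer probes passed under an alternative. Nr3c1 A_55_P2728068 passed with an intensity trend, Nr3c2 A_66_P132841 with that and with normexp, and Per1 A_55_P2019327 without LPR 1. The level of Serpina6 stayed 19.5- to 42.8-fold lower, and moved most, to -5.42, with the slide column of the array in the fit, where LPR 2 and LPR 3 share a column that holds no MRL mouse. Small changes turned their sign. Per1 was at 0.031 with quantile normalization, 0.032 with normexp and 0.23 with the slide column, and between -0.22 and 0.15 when 1 mouse was left out. Tsc22d3 was at 0.063 with the slide column and between -0.23 and 0.16 when 1 mouse was left out. Leaving out 1 mouse also gave -0.32 to 0.35 for Sgk1, negative without MRL 3, LPR 1 or LPR 3, and -1.20 to 0.31 for Zbtb16, positive without MRL 3 or LPR 1. Fkbp5 lay between -0.92 and -0.0020 when 1 mouse was left out, nearest 0 without LPR 1. The slide column moved Fkbp5 to -1.48, Sgk1 to 0.50 and Zbtb16 to -1.95.

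Of 117 tested pathway genes, 8 were called higher and 13 lower. The lower count was 21 and the higher 14 with normexp, the higher was 13 with an intensity trend, and the lower was 6 without a filter on dim probes, 8 with the methods' t-test and 6 with the slide column. Leaving out 1 mouse gave 6 to 12 higher and 2 to 10 lower, the fewest lower without LPR 3, and only leaving out LPR 2 kept the lower count near 13. Over all probes, 2606 were higher and 2462 lower. Lower were 4002 with normexp, 1092 without the filter, 1386 with the methods' t-test (1736 higher) and 463 with the slide column (1458 higher), and leaving out 1 mouse gave 1958 to 2370 higher and 760 to 2269 lower. The cause of these moves was not tested. The replicate block gave 7 lower and 6 higher pathway genes and 1117 lower probes. It narrowed the standard error of Zbtb16 from 0.82 to 0.14 and that of Fkbp5 from 0.54 to 0.13. Neither passed in limma (adjusted p = 0.123 and 0.0943). Samples of 1 number correlated at 0.12, 0.02 and 0.01 in their deviations from the group means, and only number 1 correlated best with its own number. Whether mice of 1 number share more than the number is not given in the labels and was not tested. With 3 mice a group, the intervals of Zbtb16, Fkbp5 and Sgk1 in the main fit are too wide to show a moderate change.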
